A study of Rattus norvegicus with 6 samples.

Results

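The transcripts described here belong to 36 genes of autophagy, from the kinases that start it to the receptors that choose its cargo, and were measured in purified rat beta cells. They were chosen by gene symbol, and 33 of them had a probe set (a group of short probes against 1 transcript) annotated with that symbol alone, out of 14217 such genes on the array. Map1lc3b, Gabarapl2 and Nbr1 had only probe sets annotated with several symbols and were not analysed here. Each gene was taken from its brightest probe set. The beta cells came from male Wistar rats of 10 weeks that either had free access to food (fed) or had been fasted for 24 h (fasted), and were sorted by fluorescence (FACS) and frozen at once. Each group held 3 independent isolates, each a pool of 5 rats hybridized on 1 array, so that no value belongs to a single animal. The RNA of all isolates was extracted together. The arrays compare gene expression in beta cells between the fed and the fasted state.

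Autophagy is the process by which a cell wraps a part of its cytoplasm in a double membrane, the autophagosome, and delivers it to the lysosome for breakdown. The ULK1 kinase complex starts it, a lipid kinase complex built on VPS34 and Beclin 1 nucleates the membrane, and a pair of ubiquitin-like conjugation systems attaches proteins of the LC3 and GABARAP families to it, to which cargo receptors bind. Nutrient deprivation is the classical inducer, mainly through the phosphorylation of proteins that are already present, and in beta cells autophagy is known for the turnover of insulin granules and mitochondria. mRNA levels do not measure its flux.

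The deposited values are intensities that the authors computed with dChip on a linear scale. Changes are log2 ratios (fasted divided by fed) fitted with limma, and a gene was counted as lower or higher when it passed 1.5-fold at an unadjusted p under 0.05, the thresholds of the study. The study used the statistics of dChip and reports a smaller share of transcripts past them, so calls here are not its calls. The median probe set of the whole array had a log2 change of -0.20, which became -0.02 under quantile normalization and 0.01 when every array was brought to a common 75th percentile, so changes are also given relative to that median. The array of fasted replicate 1 stood apart. It held the lowest of the 6 values for 41.4% of all probe sets, against 8.67% to 18% on each of the other arrays, and for 14 of the 33 autophagy genes. Its ratio of the 3′ to the 5′ control probe set of beta-actin was 2.4, against 1.76 to 2.05 on the fed arrays and 1.99 and 1.82 on fasted replicates 2 and 3. Some control probe sets separated the groups on every array, with a 5S rRNA intensity of 33.4, 43.3 and 37.7 on fed and 117, 59.8 and 71.8 on fasted arrays and a GAPDH 3′ intensity of 1348, 1215 and 1404 against 669, 1041 and 1004. Of 7 measured beta cell markers 0 passed the thresholds, nor did any of 8 acinar markers. The summed acinar intensity was 44392 to 47676 on fed and 41555 to 46617 on fasted arrays. All of these probe sets except that of Prss2 lay between 4354 and 7267, however. That is near the highest values of the arrays (7000 to 7629), where a difference in acinar RNA may not show. The beta cell markers Ins1, Ins2 and Iapp lay near them too, between 5686 and 7078. The dimmer Pdx1, Mafa, Slc2a2 and Nkx6-1 had log2 changes of 0.53, -0.34, -0.21 and -0.11 (unadjusted p = 0.121, 0.0419, 0.135 and 0.538 from limma). The summed intensity of 3 duct markers was 342.4 to 385.1 on fed and 418.8 to 524.2 on fasted arrays. The keratin Krt19 was higher in fasted rats (log2 change 0.70, unadjusted p = 0.00275 from limma). On fed replicate 2 the summed alpha cell markers stood at 7770, against 3561 to 5834 on the other arrays. Its sums were also the highest for delta and PP cells (8470, against 5930 to 7290) and immune cells (168.1, against 67.14 to 93.18). So was that for stellate cells and fibroblasts (349.3, against 135.2 to 259.4). The endothelial sum was highest on fed replicate 1 (108.8, against 93.63 on fed replicate 2). The part of these differences in the results below was not tested, and in a mixed sample fewer cells of a type and less RNA per cell cannot be told apart.

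Few autophagy transcripts passed the thresholds between fed and fasted rats, in a share not far from that of all genes. Of the 33 measured genes 2 were lower at the thresholds, Vmp1 and Atg16l1, 0 were higher and 31 did not pass. Of all 14217 genes 9.51% were lower and 2.29% were higher by the same rule. None of the 33 passed an adjusted p under 0.05 from limma, where the smallest was 0.292. Nor did any of all 31042 probe sets, where the smallest was 0.155. Of the 33 genes 4 had an unadjusted p under 0.05, all of them with a negative log2 change. Such a p came with a negative change in 14.9% of all genes and with a positive one in 3.64%. In 5 genes every fasted array lay below every fed array, against 21.2% of all genes, and in 1 gene, Bnip3l, every fasted array lay above, against 5.76%. The median log2 change was -0.06, with a range from -0.78 to 0.47, and the median of all genes was -0.19. The 95% interval of the log2 change lay within 1.5-fold in both directions for 12 of the 33. For the others it did not exclude a 1.5-fold change. Without fasted replicate 1, 0 were lower and 0 higher (all genes, 6.03% and 1.53%), and without fasted replicate 3 the counts were 7 and 1, where 18.7% of all genes were lower and 4.94% higher. Under quantile normalization 0 of the 33 were lower and 0 higher (all genes, 5.13% and 4.01%), and the same counts of 0 and 0 came from the 75th percentile scaling (all genes, 4.49% and 4.72%).

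**Figure D1:**
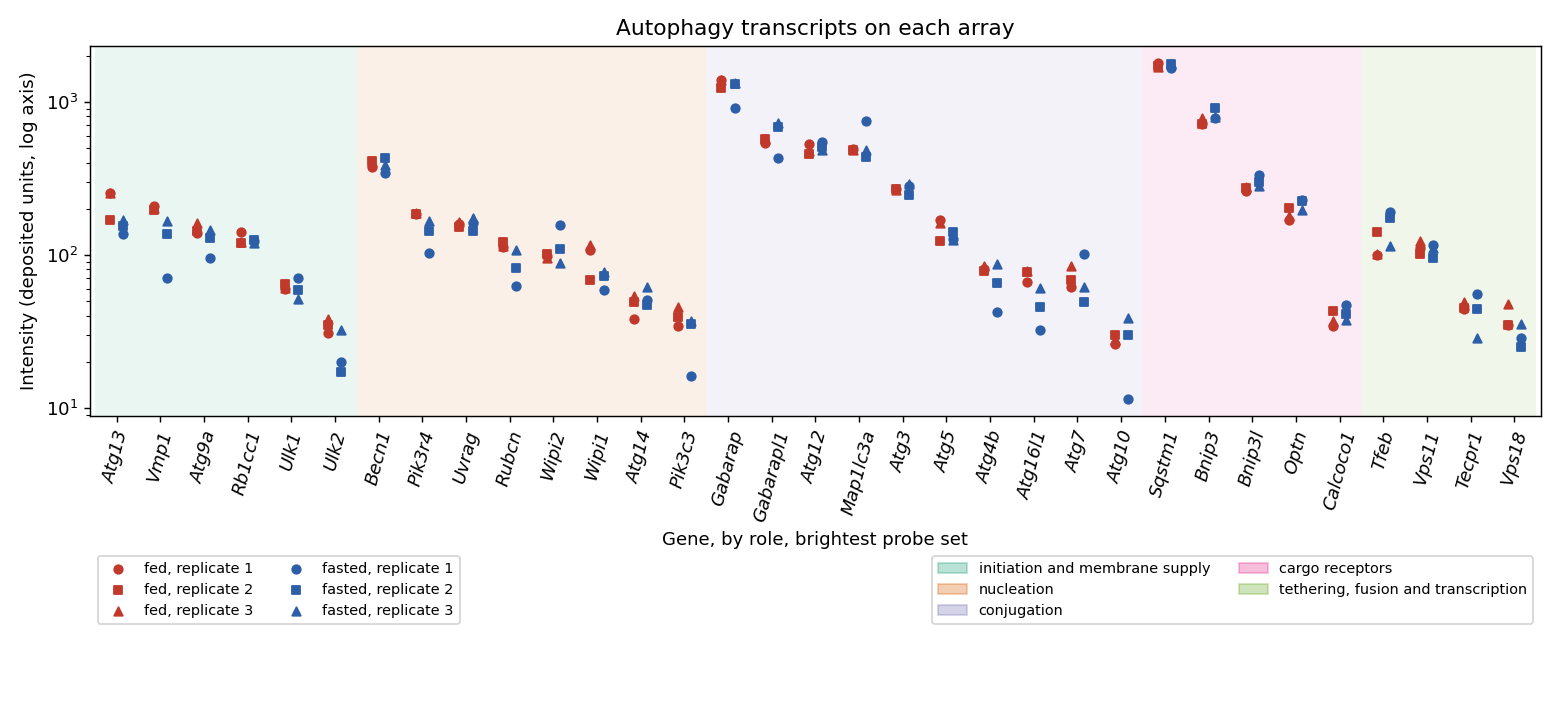
Intensity of the 33 autophagy genes on each of the 6 arrays, on a log axis, with genes sorted by role (shading); marker shape gives the replicate (1 circle, 2 square, 3 triangle) and colour the group (red, fed; blue, fasted). The 6 values of Sqstm1 lie between 1671 and 1796, and fasted replicate 1 lies lowest for Vmp1 (70.81), Gabarap (903.9) and Atg10 (11.41).

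**Figure D2:**
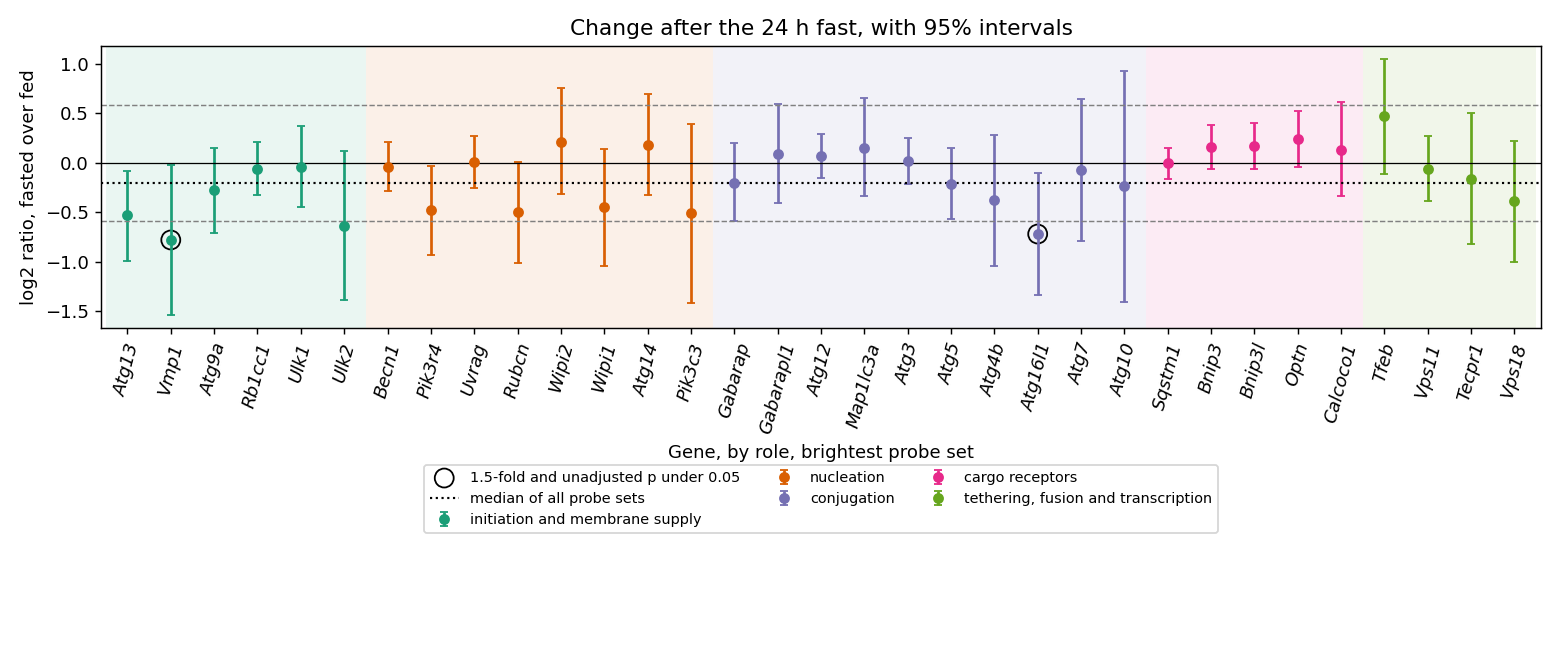
Log2 change (fasted relative to fed) of the same genes, with 95% intervals from limma (3 arrays per group); dashed lines mark 1.5-fold, the dotted line the median of all probe sets (-0.20), and rings the genes past 1.5-fold at an unadjusted p under 0.05. The rings stand on Vmp1 (-0.78) and Atg16l1 (-0.72), and the 5 cargo receptors lie between 0.00 and 0.24.

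The genes of initiation and membrane supply had the most negative median of the roles, -0.41, and 1 of its 6 members passed. The log2 change was negative in all 6, against 67% of all genes. It was negative in 4 of 6 under quantile normalization (all genes, 51.6%) and under the 75th percentile scaling (all genes, 47.2%). Ulk1 and Rb1cc1 turned positive under both. Vmp1, an ER membrane protein needed for the membrane to form, measured 207, 196.7 and 201 on the fed arrays and 70.81, 137.3 and 166.6 on the fasted ones. The groups did not overlap, and fasted replicate 1 lay far below the rest. Its log2 change was -0.78 (standard error 0.31, unadjusted p = 0.0452, adjusted p = 0.328 from limma), or -0.58 relative to the median of all probe sets. Without fasted replicate 1 it was -0.41 (unadjusted p = 0.0109), which misses 1.5-fold. Atg13, the regulatory subunit that ties ULK1 to its complex, measured 254.7, 169.4 and 253.3 in fed and 137.4, 154.7 and 168.9 in fasted rats. These groups did not overlap, though fed replicate 2 lay next to fasted replicate 3, and the log2 change of -0.53 (standard error 0.19, unadjusted p = 0.0284) missed 1.5-fold. Ulk1, the kinase itself, measured 59.97, 63.82 and 60.44 in fed and 70.86, 58.86 and 51 in fasted rats. The fasted arrays lay on both sides of the fed ones, and the log2 change was -0.04 with a 95% interval from -0.45 to 0.37, turning to 0.19 and 0.20 under the other scalings. Its relative Ulk2 had a log2 change of -0.64 (unadjusted p = 0.0843). Atg9a, the scramblase of the vesicles that seed the membrane, measured 138.1, 143.3 and 161.4 in fed and 95.64, 128.3 and 145.6 in fasted rats. Its groups overlapped, and the log2 change was -0.28 (unadjusted p = 0.165). Rb1cc1 (FIP200), the scaffold of the ULK1 complex, had -0.06. For 3 of the 6 genes (Atg13, Atg9a and Vmp1) the lowest fasted value was that of replicate 1, and without that array the median of the role was -0.29.

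The promoter of Vmp1 is shown because it was a gene past the thresholds in this role. It is the stretch of 300 bases from 250 before the annotated start (RefSeq, GRCr8, chr10:72002270-72002569, minus strand), 5′ to 3′, in lower case since no motif searched for was found in it:
Vmp1: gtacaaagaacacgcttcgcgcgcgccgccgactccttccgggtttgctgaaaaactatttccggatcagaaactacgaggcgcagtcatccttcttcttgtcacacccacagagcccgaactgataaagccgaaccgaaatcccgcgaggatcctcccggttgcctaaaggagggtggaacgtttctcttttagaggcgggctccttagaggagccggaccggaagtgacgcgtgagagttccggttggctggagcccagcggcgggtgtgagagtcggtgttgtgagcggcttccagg

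Of the 8 genes of nucleation 0 passed the thresholds, and the median was -0.25. The log2 change was negative in 5 (62.5%) and positive in 3, close to the 67% of all genes that were negative. Becn1 (Beclin 1), the organizing subunit of the lipid kinase complexes, measured 375.5, 411 and 400.4 in fed and 344, 427.7 and 384.9 in fasted rats. The fasted arrays enclosed the fed ones. Its log2 change of -0.04 had a 95% interval from -0.29 to 0.21 and turned to 0.08 and 0.20 under the other scalings. Pik3r4, the VPS15 subunit that anchors the kinase, measured 184.3, 185.5 and 188.4 in fed and 101.8, 142.3 and 165.2 in fasted rats. The fed arrays were close together, the fasted ones all lay below, and the log2 change was -0.48 (standard error 0.19, unadjusted p = 0.0412, adjusted p = 0.32 from limma). Rubcn (Rubicon), an inhibitor of the complex, measured 111.7, 120.4 and 114.7 in fed and 62.14, 81.97 and 107.1 in fasted rats. The groups did not overlap, and the log2 change was -0.50 (unadjusted p = 0.0528). Wipi1, which binds the lipid the complex makes, measured 107.4, 67.9 and 115.6 in fed and 58.39, 72.5 and 77.57 in fasted rats. Its groups overlapped through fed replicate 2, and the log2 change was -0.45 (unadjusted p = 0.109). The catalytic subunit Pik3c3 (VPS34) had -0.51, the subunits Atg14 and Uvrag, which mark the early and the late complex, had 0.18 and 0.01, and Wipi2 had 0.21. The role's median became -0.07 under quantile normalization, 0 under the 75th percentile scaling and -0.07 once fasted replicate 1 was left out.

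Of the 12 conjugation genes 10 were measured, and 1 was lower, 0 were higher and 9 did not pass. Atg16l1, which directs the conjugation to the membrane, measured 66.22, 76.96 and 77.89 in fed and 32.17, 45.49 and 60.64 in fasted rats. The groups did not overlap. The log2 change was -0.72 (standard error 0.26, unadjusted p = 0.0295, adjusted p = 0.295 from limma), or -0.52 relative to the median of all probe sets. Without fasted replicate 1 it was -0.48 (unadjusted p = 0.039), which misses 1.5-fold. Its partners in the same complex gave smaller values. Atg5 measured 168.7, 123.5 and 162 in fed and 125.8, 140.1 and 124.2 in fasted rats, with overlapping groups and a log2 change of -0.21 (unadjusted p = 0.211). Atg12, the ubiquitin-like protein joined to Atg5, measured 527.7, 454.9 and 474.9 in fed and 541.1, 502 and 485.5 in fasted rats. The groups overlapped, and its log2 change was 0.07 with a 95% interval from -0.15 to 0.29. Atg7, the activating enzyme of both systems, had a log2 change of -0.07, and the conjugating enzymes Atg3 and Atg10 had 0.02 and -0.24. The 95% interval of Atg3, from -0.21 to 0.25, was much narrower than that of the dim Atg10, from -1.41 to 0.93.

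Of the ubiquitin-like proteins that are joined to the membrane lipid, 0 of 3 measured passed the thresholds. Gabarap measured 1378, 1236 and 1392 in fed and 903.9, 1310 and 1333 in fasted rats. Fasted replicate 1 alone lay below the fed range, and the log2 change of -0.20 (unadjusted p = 0.276) was -0.01 without it. Gabarapl1, its close relative, measured 534.2, 569.2 and 569.3 in fed and 425.6, 681.5 and 720.5 in fasted rats. Here fasted replicate 1 lay below all fed arrays and the other fasted arrays above them, so that the log2 change was 0.09 (95% interval from -0.41 to 0.59) with that array and 0.33 (unadjusted p = 0.00376) without it, and neither passed 1.5-fold. Map1lc3a, of the LC3 family, had a log2 change of 0.15, and fasted replicate 1 was its highest array (748.9, against 434.5 and 481.9 on the other fasted arrays). Atg4b, the protease that primes these proteins for conjugation, measured 80.03, 77.78 and 83.8 in fed and 42.05, 65.17 and 86.98 in fasted rats on its brightest probe set. The groups overlapped (log2 change -0.38, unadjusted p = 0.214). The median of the 10 genes was -0.13, and it was positive under quantile normalization (0.06) and the 75th percentile scaling (0.11).

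The promoter of Atg16l1, the other gene past the thresholds, is given in the same way (RefSeq, GRCr8, chr9:95869763-95870062, plus strand), again without a match to the motifs searched for:
Atg16l1: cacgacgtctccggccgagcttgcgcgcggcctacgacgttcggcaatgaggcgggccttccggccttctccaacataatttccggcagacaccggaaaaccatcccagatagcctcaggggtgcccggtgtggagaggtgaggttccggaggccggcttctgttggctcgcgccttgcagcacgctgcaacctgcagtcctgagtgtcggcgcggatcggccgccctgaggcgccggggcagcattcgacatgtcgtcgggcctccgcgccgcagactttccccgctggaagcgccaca

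The cargo receptors had the highest median, 0.16, and none of the 5 measured genes had a log2 change below 0 after rounding, but 0 of 5 passed the thresholds. Before rounding 1 of the 5 was negative, against 67% of all genes. Sqstm1 (p62), the receptor of ubiquitinated proteins that is itself degraded by autophagy, measured 1796, 1707 and 1696 in fed and 1671, 1753 and 1764 in fasted rats. Its groups overlapped, and the log2 change of 0.00 had the narrowest 95% interval among them, from -0.16 to 0.15. Relative to the median of all probe sets this is 0.20. Optn (optineurin), a receptor for bacteria and mitochondria, measured 167.3, 201.3 and 177.7 in fed and 227.1, 222.8 and 194.4 in fasted rats. Its groups overlapped through fed replicate 2 and fasted replicate 3 (log2 change 0.24, standard error 0.12, unadjusted p = 0.0814, adjusted p = 0.374 from limma). Bnip3, a receptor in the outer mitochondrial membrane that is known to be induced by hypoxia and by FOXO factors, measured 715, 711.5 and 786.9 in fed and 780.8, 907.6 and 792.1 in fasted rats. The overlap was small, and the log2 change was 0.16 (unadjusted p = 0.12). Its homologue Bnip3l (NIX) measured 260, 271.7 and 276.2 in fed and 333.8, 296.3 and 281.8 in fasted rats. All fasted arrays lay above all fed ones, yet the log2 change was 0.17 (unadjusted p = 0.115). Calcoco1, an ER-phagy receptor, was dim and had 0.13 (unadjusted p = 0.527). After quantile normalization Optn had a log2 change of 0.39, Bnip3 of 0.30 and Bnip3l of 0.28, each with an unadjusted p under 0.05 (0.0249, 0.0112 and 0.0456 from limma) and each below 1.5-fold. The median of the role was 0.10 without fasted replicate 1.

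Of the 4 genes of tethering, fusion and transcription 0 passed the thresholds. Tfeb, the transcription factor of lysosomal and autophagy genes that is held in the cytoplasm by mTORC1, had the largest positive log2 change of the 33 genes. It measured 99.91, 139.8 and 101.1 in fed and 191, 172.4 and 113.8 in fasted rats. Fasted replicate 3 lay within the fed range, and the log2 change was 0.47 (standard error 0.24, unadjusted p = 0.0966, adjusted p = 0.393 from limma), or 0.67 relative to the median of all probe sets. It passed both thresholds without fasted replicate 3 (0.69, unadjusted p = 0.015), and without any other single array it did not, with log2 changes from 0.32 (fasted replicate 1 left out, unadjusted p = 0.251) to 0.63 (fed replicate 2 left out, unadjusted p = 0.0562). Vps18, a core subunit of the tethering complexes HOPS and CORVET, measured 34.6, 34.48 and 47.72 in fed and 28.66, 24.8 and 35.37 in fasted rats. Its groups overlapped (log2 change -0.39, unadjusted p = 0.166), and Vps11 of the same core had -0.06. Tecpr1, a tether of autophagosomes to lysosomes, measured 44.45, 44.71 and 49 in fed and 55.05, 44.17 and 28.67 in fasted rats. The fasted arrays lay on both sides of the fed ones (log2 change -0.16, unadjusted p = 0.576).

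TFEB binds the CLEAR element, whose core is the E-box CACGTG, and FOXO factors bind the forkhead site GTAAACA. Promoter windows were held for 28 of the 33 genes. On either strand, CACGTG was found for 5 of these 28 genes (17.9%), and in 6.42% of all 33469 windows of that length. GTAAACA was found for 0 of the 28 genes and in 3.78% of all windows. The first share counts genes, 1 of which had more than 1 window, and the second counts single windows. The share of all array genes with a match was not counted. Whether the motif is more frequent in these genes thus cannot be read from these shares, and was not tested. A match is a description and shows no binding, and a window without one says nothing of the factor. The windows with an E-box are shown with the motif in capitals and 15 bases on either side, 5′ to 3′ (RefSeq, GRCr8), to set them beside the levels of their genes. They lie at chr15:23306789-23306824 for Atg14, at chr11:69159299-69159334 and chr11:69159276-69159311 for Atg3, at chr1:203155041-203155076 for Bnip3 and at chr8:53595382-53595417 and chr8:53595361-53595396 for Vps11, all on the minus strand, and at chr20:49380801-49380836 on the plus strand for Atg5:
Atg14: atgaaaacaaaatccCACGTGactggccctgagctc
Atg3, upstream: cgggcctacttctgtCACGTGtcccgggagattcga
Atg3, downstream: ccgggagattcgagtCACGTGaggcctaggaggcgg
Atg5: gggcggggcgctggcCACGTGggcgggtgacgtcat
Bnip3: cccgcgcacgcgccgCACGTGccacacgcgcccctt
Vps11, upstream: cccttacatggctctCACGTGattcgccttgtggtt
Vps11, downstream: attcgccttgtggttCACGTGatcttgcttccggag
None of these genes passed the thresholds, and their log2 changes were 0.18 for Atg14, 0.02 for Atg3, -0.21 for Atg5, 0.16 for Bnip3 and -0.06 for Vps11.

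On the single arrays the roles moved apart mostly on fasted replicate 1. For each role the median log2 intensity was taken relative to the mean of the 6 arrays. Initiation and membrane supply stood at 0.17, 0.09 and 0.33 on the fed arrays and at -0.45, -0.11 and 0.02 on the fasted ones, without overlap. The cargo receptors stood at -0.14, -0.02 and -0.05 on the fed arrays and at 0.20, 0.05 and -0.02 on the fasted ones, where fasted replicate 3 equalled fed replicate 2. Nucleation (0.03, 0.04 and 0.18 against -0.32, -0.12 and 0.10) and conjugation (0.05, -0.01 and 0.14 against -0.29, -0.06 and 0.09) overlapped. So did tethering, fusion and transcription (0.03, 0.04 and 0.17 against 0.22, -0.09 and -0.10), which on fasted replicate 1 lay slightly above the cargo receptors. The median over all genes moved from 0.11, 0.09 and 0.09 to -0.23, -0.10 and 0.04. Among the 33 genes initiation had the lowest and the cargo receptors the highest median also under quantile normalization (-0.23 and 0.30). The same held under the 75th percentile scaling (-0.16 and 0.41) and without fasted replicate 1 (-0.29 and 0.10). The roles between them changed places without that array. This order did not hold in the list of other autophagy genes given below. No difference between roles was tested.

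**Figure D3:**
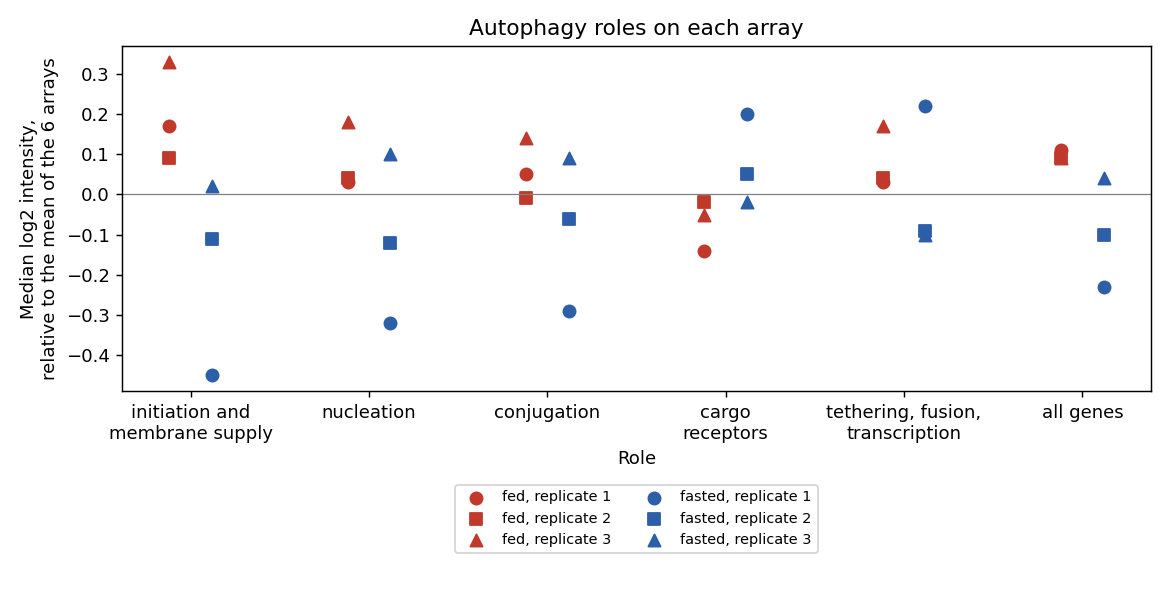
Median log2 intensity of the genes of each role on each array, relative to the mean of the 6 arrays, with the same for all genes at the right; marker shape gives the replicate (1 circle, 2 square, 3 triangle) and colour the group (red, fed; blue, fasted). Fasted replicate 1 stands at -0.45 for initiation and membrane supply and at 0.20 for the cargo receptors.

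For 16 of the 33 genes more than 1 probe set was present, and for 8 of these the probe sets differed in the sign of the change or in the call. The call differed for 3 genes. On the second probe set of Sqstm1 the intensity was 500.6, 470.7 and 440.9 in fed and 577.8, 552.8 and 533 in fasted rats, without overlap (log2 change 0.24, standard error 0.08, unadjusted p = 0.025, adjusted p = 0.287 from limma). On the next it was 20.2, 20.84 and 22.6 against 61.67, 36.35 and 28.71, and passed as higher (log2 change 0.92, unadjusted p = 0.031), while the brightest showed 0.00. The dimmest probe set of Sqstm1 lay near the floor, between 1 and 4.12. The mean over the 4 probe sets had a log2 change of 0.34 (unadjusted p = 0.0219), which misses 1.5-fold. The other probe set of Atg4b, nearly as bright as the first, measured 97.73, 89.63 and 87.8 in fed and 17.93, 34.15 and 81.85 in fasted rats and passed as lower (log2 change -1.31, standard error 0.53, unadjusted p = 0.0455). Its fasted values differed among themselves far more than the fed ones. That of Tecpr1 measured 32.47, 24.42 and 35.82 against 10.39, 7.25 and 21.71 and passed as lower too (log2 change -1.37, unadjusted p = 0.0258), so that with the mean of its probe sets Tecpr1 passed (-0.77, unadjusted p = 0.0156). The sign alone differed for Atg12 (0.07 on the brightest, -0.24 and -0.43 on the others), Atg9a (-0.28 and 0.23), Gabarap (-0.20 and 0.13), Optn (0.24 and -0.36) and Wipi1 (-0.45 and 0.52). The dimmer probe set of Ulk1, at 35.93, 30.19 and 36.11 against 16.47, 22.39 and 26.84, did not overlap. It had a log2 change of -0.66 (unadjusted p = 0.0517), against -0.04 on the brighter one. Vps18 had -0.39 and -1.05 on probe sets of like brightness (mean intensity 34.3 and 34.1). Rb1cc1 had -0.06 and -0.53, and Atg7 had -0.07, -0.35 and -0.62. Smaller spreads were those of Atg5 (-0.21, -0.33 and -0.10), Bnip3l (0.17 and 0.19), Gabarapl1 (0.09 and 0.25) and Rubcn (-0.50 and -0.23). The dimmer probe set of Rubcn lay near the floor, however, between 1.56 and 4.53, where a change is compressed. That of Atg9a was dim as well, between 5.9 and 21.05. Of the 21 probe sets that were not the brightest of their gene, 2 were lower and 1 higher, against 8.43% and 2.37% of all probe sets, and 11 had their lowest value on fasted replicate 1. Which transcripts each probe set detects was not analysed here.

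**Figure D4:**
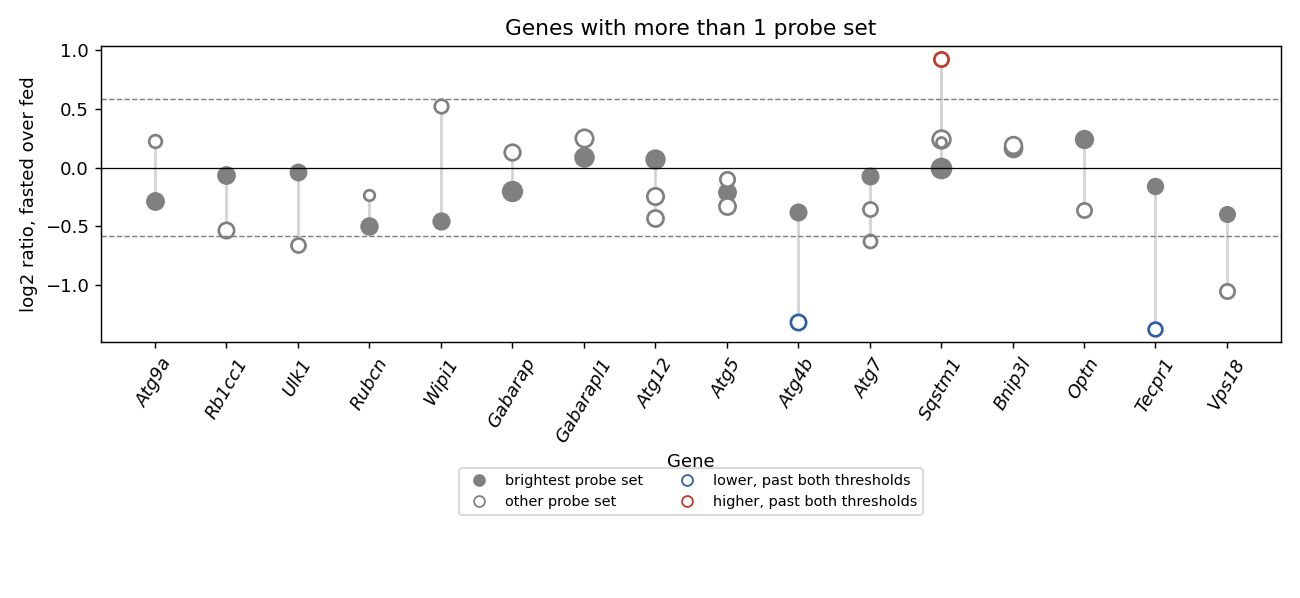
Log2 change (fasted relative to fed) of every probe set of the 16 genes with more than 1, filled for the brightest and open for the others, with larger points for brighter probe sets; blue and red are lower and higher past 1.5-fold at an unadjusted p under 0.05, and dashed lines mark 1.5-fold. The widest spreads are those of Tecpr1 (-0.16 and -1.37), Wipi1 (-0.45 and 0.52), Atg4b (-0.38 and -1.31) and Sqstm1 (0.00 to 0.92).

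Of 40 other autophagy genes listed, 37 were measured, with 2 lower (5.41%) and 1 higher (2.7%), against 9.51% and 2.29% of all genes. The other 34 did not pass both thresholds, and the median of the 37 was -0.22 on the log2 scale. Mitf, a transcription factor of the family of TFEB, measured 29.03, 24.62 and 28.12 in fed and 8.39, 8.1 and 21.92 in fasted rats. The groups did not overlap (log2 change -1.25, standard error 0.46, unadjusted p = 0.0344, adjusted p = 0.307 from limma). Atg4a, a protease of the family of Atg4b, measured 47.31, 42.31 and 51.35 against 26.09, 24.51 and 41.03, also without overlap (log2 change -0.66, unadjusted p = 0.0443). Plekhm1, an adaptor that links HOPS to RAB7, was the gene that was higher, with 97.18, 138.7 and 108.2 in fed and 265.9, 184.9 and 133.4 in fasted rats. Its groups overlapped through fasted replicate 3 (log2 change 0.72, unadjusted p = 0.0376). By role the lower genes were 1 of 3 in conjugation and 1 of 13 in tethering, fusion and transcription, and 0 of 5 in initiation, 0 of 4 in nucleation and 0 of 12 among cargo receptors were lower. The median of the other cargo receptors was -0.18, against 0.16 for the 5 described above. That of the other initiation genes was -0.08, against -0.41 for the 6 described above, and was the least negative of this list. It was also the highest of this list under quantile normalization (0.09) and the 75th percentile scaling (0.16). None of the 37 was lower or higher once fasted replicate 1 was left out (all genes, 6.03% and 1.53%), and without fasted replicate 3 the list had 7 lower (18.9%) and 1 higher, where 18.7% of all genes were lower and 4.94% higher.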

How the data were processed

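Beta cells purified by fluorescence-activated cell sorting from fed and 24 h fasted rats were hybridized on Affymetrix arrays, with 3 isolates per group and 1 array per isolate. The deposited intensity of each probe set is the authors' dChip model-based estimate, for which arrays were normalized to the one of median intensity and mismatch probes served as background. The version of dChip is not given in the sources used here, and no detection calls were used. Values are on a linear scale, neither logged nor centred.

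The 57 control probe sets were not tested. Intensities were floored at their 10th percentile (3.27), log2 transformed and fitted in R 4.3.3 with limma 3.58.1 (lmFit, then eBayes with a trend on intensity, no block, two-sided). P-values were adjusted by the Benjamini-Hochberg method over 31042 probe sets. Calls used the study's thresholds, 1.5-fold with an unadjusted p under 0.05. A gene was taken from its brightest probe set among those annotated with 1 symbol. Of all probe sets 20826 had 1 symbol, 436 several and 9780 none. Of the first, 20758 matched the current rat gene table by gene number and 0 symbols differed. Means and SDs are those of linear intensities, and 95% intervals come from the limma fit. The number of arrays limits the precision. The genes, the roles they were sorted into and the other lists were chosen with earlier results of these data known. Values on each array are given for genes past both thresholds, for the 2 genes of each role with the largest moderated statistic, for Ulk1, Becn1, Gabarapl1, Sqstm1, Bnip3 and Tfeb, and for genes whose probe sets differ in sign or call. The other genes are given by their log2 change, and Ulk2 was singled out after its values were seen.

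The alternatives were Welch's comparison of linear values, leaving out dim probe sets, raising the floor to the 25th percentile (7.53), a pseudocount instead, quantile or 75th percentile scaling, eBayes without the trend or with robust variance, array weights, a block for the replicate number, leaving out each array in turn, and averaging a gene's probe sets. The fit was checked on simulated data with independent noise of equal spread in both groups. No array was shifted as a whole there, so the check does not cover an array that stands apart. Promoter windows came from RefSeq (GRCr8) and were matched by gene number. Python 3.11.15 and matplotlib 3.10.9 drew the figures.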

Additional observations from a re-analysis of the deposited data

How the results depend on the processing

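The count of lower genes, 2 with all arrays, was 0 in Welch's comparison of linear values, 0 under quantile normalization and 0 under the 75th percentile scaling, and 1 with the floor at the 25th percentile or without the intensity trend. It ranged from 0 to 7 when single arrays were left out, and the count of higher genes from 0 to 1. Vmp1 and Atg16l1 missed a threshold without any of the arrays other than fasted replicate 3, with log2 changes between -0.89 and -0.41 for Vmp1 and between -0.80 and -0.48 for Atg16l1. The genes that were lower without fasted replicate 3 were Atg13, Atg16l1, Atg4b, Pik3r4, Rubcn, Ulk2 and Vmp1, and without fed replicate 2 they were Atg13 and Wipi1. With array weights, whose estimation did not converge, 3 genes were lower (Atg16l1, Ulk2 and Vps18) and 1 (Tfeb) was higher. In that fit 10 had an adjusted p under 0.05 and the median was -0.12. Its weights were 0.21, 11.9 and 0.331 on fasted replicates 1, 2 and 3, against 0.813 to 1.26 on the fed arrays. The fasted side of that fit, with its calls and adjusted p-values, thus rests mostly on fasted replicate 2. Shares of all genes were counted only in the main fit, under the quantile and 75th percentile scalings and without single fasted arrays. Under the other alternatives, array weights among them, the counts have no such share beside them and are not a result about these genes alone. The median of the 33 genes became 0.11 under quantile normalization and 0.18 under the 75th percentile scaling. By role these medians were 0.30 and 0.41 for cargo receptors, 0.06 and 0.11 for conjugation, -0.07 and 0 for nucleation, 0.11 and 0.13 for tethering, fusion and transcription, and -0.16 after the second scaling for initiation. When a gene's probe sets were averaged 3 genes were lower (Atg16l1, Tecpr1 and Vmp1), and the medians were -0.02 for nucleation and -0.39 for tethering, fusion and transcription. The causes were not tested. With single arrays left out the median of nucleation ranged from -0.30 to -0.07.

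Same-numbered arrays did not deviate together (correlations of 0, 0.01 and -0.05), so the numbers were not taken as pairs, and with the replicate number as a block 2 genes were lower and 0 higher. Of 357 values of 21 genes under 17 alternatives, 19 lost and 10 gained a call, 0 were called in the opposite direction and 23 changed sign without a call. No detection calls were used here, so the signal over background of dim genes such as Atg10 and Ulk2 is unknown.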
